A study of Mus musculus with 4 samples.

Results

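Potassium channel genes were followed in cells sorted from the corpus callosum, the white matter tract that joins the hemispheres of the forebrain. The members were the protein-coding genes whose mouse symbol begins with Kcn, including regulatory subunits, without Kcnj8 and Kcnj13, which mark mural cells and choroid plexus. They numbered 92 of 52636 Ensembl genes in the files. Of these, 14 had a value of 1 or more in at least 2 libraries and are described one by one, and 78 lay below that and are counted.

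All 4 libraries came from mice labelled Mertk_KO, which lack the phagocytic receptor Mertk, and all the mice ate chow with 0.2% cuprizone, a copper chelator toxic to oligodendrocytes, for 4 weeks. The groups were AnnexinV-positive cells (2 libraries), which the design calls dying, and AnnexinV-negative cells (2 libraries), called living. Annexin V is a protein that binds phosphatidylserine on the outer face of the cell membrane. No wild-type, untreated or unsorted library was analysed here, and the sources used here do not give the age of the mice. Nothing says whether the 2 libraries of a group are from different mice. P-values therefore reflect the spread between these libraries alone, which may be technical.

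Potassium channels let potassium ions leave or enter a cell and set its resting membrane potential. In white matter, inward rectifiers of astrocytes and oligodendrocytes take up potassium released by active axons, voltage-gated channels of the Kv1 family lie along axons and in cells of the oligodendrocyte lineage, and microglia carry tandem pore, Kv1 and calcium-activated channels. Loss of potassium from the cell accompanies apoptotic shrinkage and is a known trigger of the NLRP3 inflammasome.

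The start-site regions of 4 members are printed because these genes had the largest decreases and increases with an entry in the RefSeq promoter table, which held 11 of the 14 genes. Each sequence is the 250 bases before the RefSeq start (GRCm38.p6), 5′ to 3′ on the gene's strand. Capitals mark ACAAAG, a core of sites for HMG-box factors such as SOX10 of oligodendrocytes, or GGAAGT, a core of ETS-factor sites such as those of PU.1 in microglia, on either strand.
Kcna6, chr6:126740675-126740924, minus strand, a gene that fell: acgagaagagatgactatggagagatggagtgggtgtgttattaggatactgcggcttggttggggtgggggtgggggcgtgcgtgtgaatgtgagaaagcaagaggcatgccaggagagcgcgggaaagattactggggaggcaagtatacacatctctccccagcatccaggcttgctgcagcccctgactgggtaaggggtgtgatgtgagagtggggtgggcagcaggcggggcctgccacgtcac
Kcnj10, chr1:172340960-172341209, plus strand, a gene that fell: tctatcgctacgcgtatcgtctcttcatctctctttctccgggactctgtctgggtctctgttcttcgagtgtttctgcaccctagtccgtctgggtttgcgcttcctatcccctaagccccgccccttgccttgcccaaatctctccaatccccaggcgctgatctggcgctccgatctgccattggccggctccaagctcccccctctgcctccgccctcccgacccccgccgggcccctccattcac
Kcnk12, chr17:87797995-87798244, minus strand, a gene that rose: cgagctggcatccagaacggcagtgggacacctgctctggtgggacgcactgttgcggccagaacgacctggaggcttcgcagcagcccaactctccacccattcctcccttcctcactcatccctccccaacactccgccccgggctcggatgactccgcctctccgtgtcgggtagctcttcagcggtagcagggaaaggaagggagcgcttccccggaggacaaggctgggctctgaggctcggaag
Kcna3, chr3:107035912-107036161, plus strand, a gene that rose: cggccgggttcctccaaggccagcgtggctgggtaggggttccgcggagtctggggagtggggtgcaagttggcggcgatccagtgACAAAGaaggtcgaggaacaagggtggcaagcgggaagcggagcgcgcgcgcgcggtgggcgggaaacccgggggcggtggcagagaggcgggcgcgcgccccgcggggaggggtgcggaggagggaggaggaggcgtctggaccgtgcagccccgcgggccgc
Of these 4, Kcna3 held 1 match to ACAAAG and none held GGAAGT. Over 32817 promoter windows of the same length, 16.5% held ACAAAG and 19.7% held GGAAGT. The share of G and C was 58.8% at Kcna6, 62% at Kcnj10, 64.8% at Kcnk12 and 74.4% at Kcna3. The matches are a description of these letters, not of factor binding.

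Levels are given as RPKM, reads per kilobase of gene length and per scaled library depth, so they can be compared between genes. About 43244 to 67448 reads per library, in units of 1000 reads, lay in genes, by the size of the steps between deposited values, and a single read per kilobase of gene corresponded to 0.00833 to 0.0116 RPKM. Differences are log2 fold changes, AnnexinV-positive minus AnnexinV-negative, of log2(RPKM + 0.1), tested with limma over 10927 genes with Benjamini-Hochberg adjustment. A gene is said to have risen or fallen where its adjusted p was under 0.05. Over all genes tested, the median difference on the deposited scale was 0.45, so a gene at 0.45 moved with the bulk of the genes. The calls of the 14 genes are therefore also counted, and values of single genes given in part, after centring the libraries on the median log2 ratio of the genes tested (all-gene median 0.02), on the TPM scale, where every library sums to the same total (all-gene median -0.32), and after centring on 14 microglia markers (all-gene median -0.79).

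Of the 14 genes, 6 were higher in AnnexinV-positive cells (Kcnk12, Kcna3, Kcnn4, Kcnd1, Kcnk6 and Kcnma1), 4 were lower (Kcna6, Kcna1, Kcnj10 and Kcnk1), and 4 did not pass the test (Kcnj2, Kcnk13, Kcne2 and Kcnip3), on the deposited scale (limma). Among all genes tested, 30.8% were higher and 9.26% lower on that scale. The log2 fold changes of these 10 genes ran from -4.32 for Kcna6 to 1.67 for Kcnk12. With the libraries centred on the median ratio, 1 gene was higher (Kcnk12) and 4 were lower, where all genes gave 6.53% and 11.9%. Centring each library on its own median also gave 1 and 4, against 10.4% and 10.8%. On the TPM scale 1 was higher and 6 lower, with 1.03% and 19.1% of all genes, and after centring on microglia markers 0 were higher and 6 lower, with 0.101% and 51.1%. At an unadjusted limma p under 0.05 the counts on that last scale were also 0 and 6. The 4 genes that fell did so on each of these scales, and Kcnip3 and Kcnk13 joined them on the last pair.

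The 14 genes had a median log2 fold change of 0.32 on the deposited scale, against 0.45 over all genes tested. Kcna1, Kcna6 and Kcnj10 reached an RPKM of 1 only in AnnexinV-negative libraries, and Kcnk12, Kcnn4 and Kcnma1 only in AnnexinV-positive ones, so these 6 had to differ to be among the 14. The other 8 reached 1 in both groups. In 6 genes both AnnexinV-positive libraries lay above both AnnexinV-negative ones, in 6 they lay below, and in 2 (Kcnj2 and Kcne2) the groups overlapped. Over all genes tested, 60.9% lay fully above and 14.9% fully below. Without AnnexinV-positive library 1 the number of members called higher fell from 6 to 3 and that called lower from 4 to 3, where all genes went from 30.8% to 16% higher and from 9.26% to 7.53% lower.

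**Figure D1:**
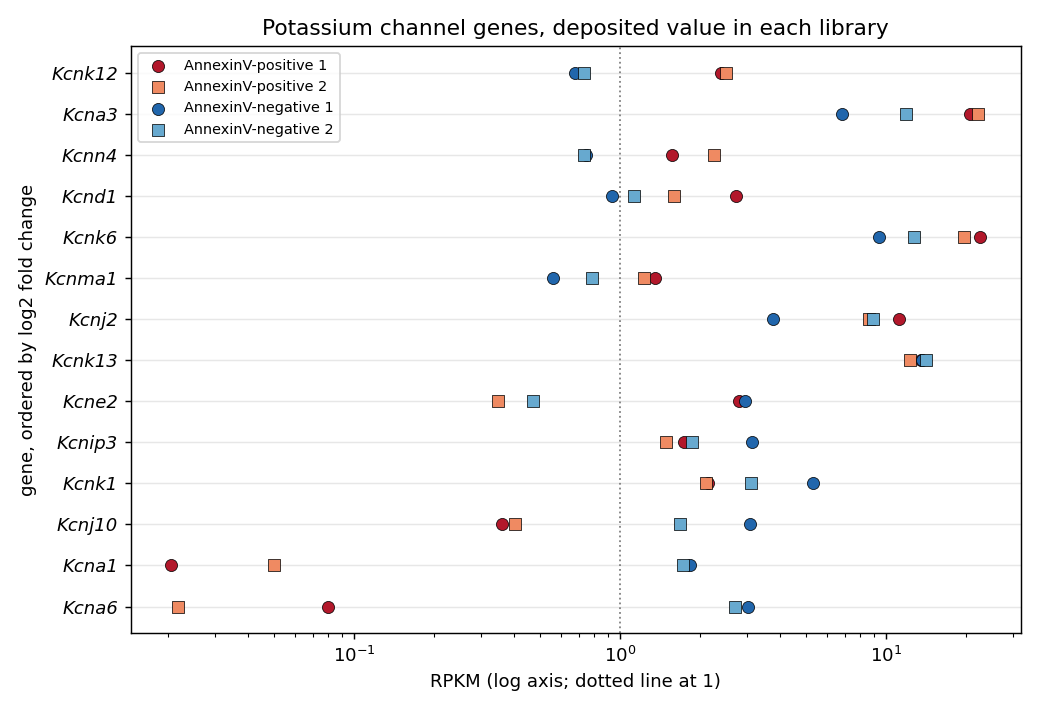
RPKM (log axis) of the 14 potassium channel genes in each of the 4 libraries, ordered by log2 fold change, with AnnexinV-positive libraries in red tones and AnnexinV-negative ones in blue. Kcna1 and Kcna6 lie under 0.1 in both AnnexinV-positive libraries and above 1.7 in both AnnexinV-negative ones, and Kcne2 follows the library number instead of the group.

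The voltage-gated genes, whose channels open when the membrane depolarises, moved in both directions, with 2 of 4 described members higher and 2 lower. Over all genes tested, 30.8% were higher and 9.26% lower. The 2 lower members, Kcna6 and Kcna1, reached an RPKM of 1 only in AnnexinV-negative libraries. Kcna6 (ENSMUSG00000038077, chromosome 6, 126708329 to 126740674, minus strand, GRCm38), which encodes the Kv1.6 channel, was at an RPKM of 0.0797 and 0.0219 in AnnexinV-positive libraries 1 and 2 and at 3.02 and 2.70 in AnnexinV-negative libraries 1 and 2. The AnnexinV-positive values rest on about 47 and 11 reads. The groups were far apart, and the log2 fold change was -4.32 (SE 0.35; limma adjusted p 6.10e-04). The decrease of Kcna6 passed in all 14 alternative analyses, with adjusted p of 1.60e-05 to 0.00409. In the annotation 2355 of its 5945 exon bases are shared with Gm26673, and since the libraries kept no strand, reads from these genes cannot be separated.

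Kcna1 (ENSMUSG00000047976, chromosome 6, 126640397 to 126646384), which encodes Kv1.1, the channel flanking the nodes of Ranvier, lies next to Kcna6 on the same strand and showed the same pattern. Its RPKM was 0.0206 and 0.050 in AnnexinV-positive libraries and 1.84 and 1.72 in AnnexinV-negative libraries. The log2 fold change was -3.80 (SE 0.36, limma adjusted p 0.0010; 7.44e-05 to 0.00527 over 13 alternatives). Kcna1 had a mean under 1 over the 4 libraries and was not tested with a minimum on the mean. Kcna5, a further Kv1 gene of this stretch of chromosome 6, stayed below the minimum, at 0.0471 ± 0.0034 in AnnexinV-positive and 0.165 ± 0.0297 in AnnexinV-negative cells (SD, n = 2 each).

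Kcna3 (ENSMUSG00000047959, chromosome 3, 107036169 to 107038070), which encodes Kv1.3, a channel of lymphocytes and activated microglia, went the other way. It was at an RPKM of 20.7 and 22.2 in AnnexinV-positive libraries and 6.84 and 11.9 in AnnexinV-negative libraries, ranking second and first of the channel genes in the former and below Kcnk13 and Kcnk6 in both of the latter. The log2 fold change of Kcna3 was 1.24 (SE 0.27, limma adjusted p 0.0132; 0.00120 to 0.969 over 14 alternatives). It held without any 1 library, but with the libraries centred on the median ratio it was 0.82 (adjusted p 0.0799), on the TPM scale 0.48, and after centring on microglia markers 0.01. Kcna3 therefore differed by about as much as the microglia markers did.

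Kcnd1 (ENSMUSG00000009731, X chromosome, 7822289 to 7838280), which encodes the rapidly inactivating channel Kv4.1, was at 2.72 and 1.59 in AnnexinV-positive libraries and 0.932 and 1.13 in AnnexinV-negative libraries. AnnexinV-positive library 1 stood highest. Kcnd1 differed by 0.96 on the log2 scale (SE 0.31, limma adjusted p 0.0450; 0.015 to 0.646 over 14 alternatives). Without AnnexinV-positive library 1 it was 0.59 (adjusted p 0.299), without AnnexinV-negative library 1 it was 0.83 (adjusted p 0.0836), and after centring on microglia markers it turned to -0.28.

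Inward rectifiers pass potassium more readily into the cell than out of it. Of 2 described members 1 fell, where 9.26% of all genes tested were lower. That member, Kcnj10, reached an RPKM of 1 only in AnnexinV-negative libraries. Kcnj10 (ENSMUSG00000044708, chromosome 1, 172341210 to 172374085) encodes Kir4.1, the main potassium uptake channel of astrocytes and oligodendrocytes. Its RPKM was 0.361 and 0.404 in AnnexinV-positive libraries and 3.08 and 1.68 in AnnexinV-negative libraries. The lowest AnnexinV-negative value was thus well above both AnnexinV-positive ones. For Kcnj10 the log2 fold change was -2.31 (SE 0.34, limma adjusted p 0.00408), and it passed in all 14 alternatives, with adjusted p of 8.06e-04 to 0.0202. Its neighbour on chromosome 1, Kcnj9, encodes the G protein-gated Kir3.3 and was below the minimum, at 0.832 and 0.469 against 0.0535 and 0.202, higher in AnnexinV-positive cells without passing the test in the fit with no minimum (log2 fold change 1.76, limma adjusted p 0.0646).

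Kcnj2 (ENSMUSG00000041695, chromosome 11, 111066164 to 111076821) encodes Kir2.1, an inward rectifier of microglia, endothelium and muscle. It was at 11.2 and 8.66 in AnnexinV-positive libraries and 3.76 and 8.92 in AnnexinV-negative libraries. The groups overlapped, because AnnexinV-negative library 2 lay above AnnexinV-positive library 2. The log2 fold change of Kcnj2 was 0.75 (SE 0.38, limma adjusted p 0.152; 0.00346 to 0.986 over 14 alternatives). Without AnnexinV-negative library 2 it was 1.37 and passed (adjusted p 0.00346), and on the TPM scale it was -0.01.

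The tandem pore (K2P) channels carry the background potassium current of many cells. Of 4 described members, 2 rose, 1 fell and 1 did not pass, beside 30.8% higher and 9.26% lower over all genes tested. Kcnk12, 1 of those that rose, reached an RPKM of 1 only in AnnexinV-positive libraries. Kcnk6 (ENSMUSG00000046410, chromosome 7, 29221926 to 29232515) encodes TWIK2, described in macrophages as a potassium exit route upstream of NLRP3. It ranked first of the channel genes in AnnexinV-positive library 1 and second in the other 3 libraries. Its RPKM was 22.6 and 19.6 in AnnexinV-positive libraries and 9.42 and 12.8 in AnnexinV-negative libraries. The groups did not overlap. Kcnk6 differed by 0.94 on the log2 scale (SE 0.21, limma adjusted p 0.0147; 0.00275 to 0.630 over 14 alternatives). Without AnnexinV-positive library 1 it was 0.84 (adjusted p 0.0740), with the libraries centred on the median ratio 0.51, on the TPM scale 0.16, and after centring on microglia markers it turned to -0.30.

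Kcnk13 (ENSMUSG00000045404, chromosome 12, 99964499 to 100062682) encodes THIK1, the channel that sets the resting potential of microglia. It was at 13.6 and 12.3 in AnnexinV-positive libraries and 13.7 and 14.2 in AnnexinV-negative libraries, a nearly level row. For Kcnk13 the log2 fold change was -0.11 (SE 0.17, limma adjusted p 0.635; 0.00537 to 0.943 over 14 alternatives). While microglia markers rose by a median of 1.24, Kcnk13 did not pass the test in either direction on the deposited scale. On the TPM scale it fell, with a log2 fold change of -0.88 (adjusted p 0.0169), and after centring on microglia markers it was at -1.34 (adjusted p 0.00537).

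Kcnk12 (ENSMUSG00000050138, chromosome 17, 87745801 to 87797994) encodes THIK2, the close relative of THIK1, and moved differently from it. Its RPKM was 2.41 and 2.51 in AnnexinV-positive libraries and 0.679 and 0.730 in AnnexinV-negative libraries, with little spread in either group. The log2 fold change of Kcnk12 was 1.67 (SE 0.23, limma adjusted p 0.00345; 0.00219 to 0.200 over 14 alternatives). It was the one member higher on the TPM scale (1.01, adjusted p 0.0337), and the centring on microglia markers left 0.44 (adjusted p 0.200). Within each library, where scaling plays no part, Kcnk12 stood at 0.177 and 0.205 of the Kcnk13 level in AnnexinV-positive and at 0.0497 and 0.0516 in AnnexinV-negative cells.

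Kcnk1 (ENSMUSG00000033998, chromosome 8, 125995170 to 126030685) encodes TWIK1, a channel of astrocytes and neurons among other cells. It was at 2.15 and 2.12 in AnnexinV-positive libraries and 5.33 and 3.11 in AnnexinV-negative libraries. The AnnexinV-negative pair was higher and more spread. Kcnk1 differed by -0.90 on the log2 scale (SE 0.28, limma adjusted p 0.0402; 0.00426 to 0.135 over 14 alternatives). Without AnnexinV-positive library 1 it was -0.91 (adjusted p 0.0942), without AnnexinV-positive library 2 it was -0.89 (adjusted p 0.115), and without AnnexinV-negative library 1 it was -0.52 (adjusted p 0.135). In the annotation 179 exon bases of Kcnk1 are shared with Gm45875.

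**Figure D2:**
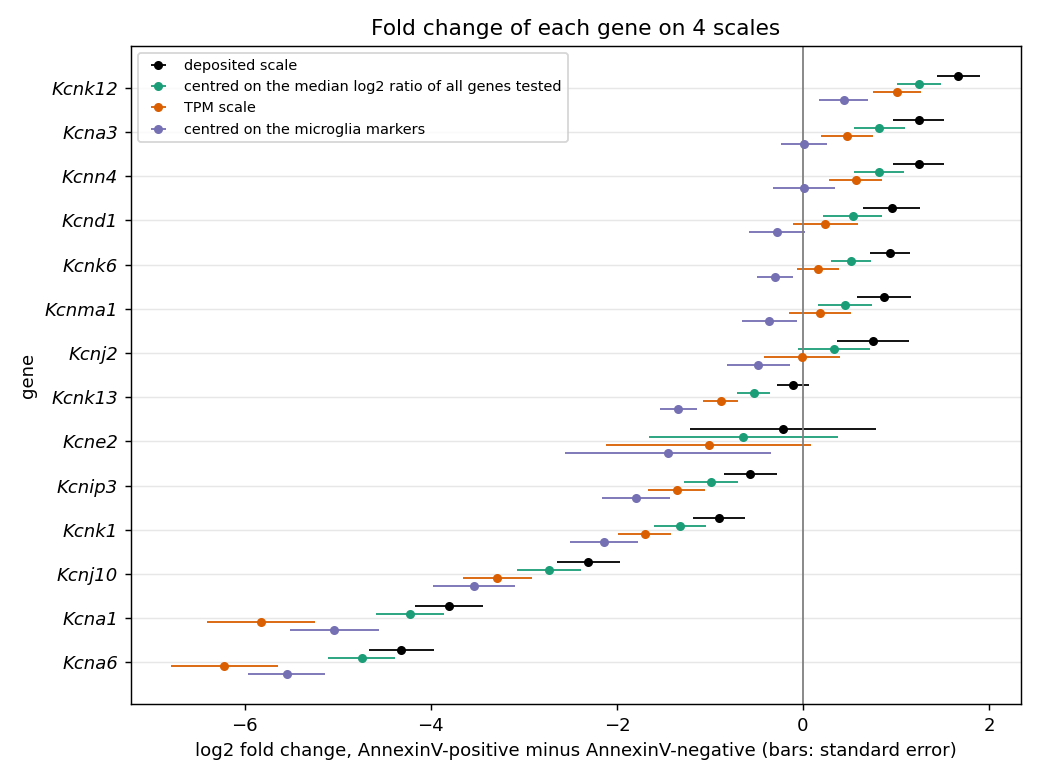
Log2 fold change with its standard error for the 14 genes on the deposited scale, with the libraries centred on the median log2 ratio of all genes tested, on the TPM scale, and centred on microglia markers. Kcna6, Kcna1, Kcnj10 and Kcnk1 are below 0 on all 4 scales, while Kcna3 and Kcnn4 come to 0.01 and Kcnk6 to -0.30 when microglia markers set the zero.

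Channels of the calcium-activated family open when calcium rises inside the cell. Both described members were higher in AnnexinV-positive cells on the deposited scale, where 30.8% of all genes tested were higher. Both reached an RPKM of 1 only in AnnexinV-positive libraries, so they had to be higher there to be described. Of the 6 calcium- or sodium-activated genes below the minimum, 0 rose and 0 fell in the fit with no minimum. All genes gave 4.16% and 5.55% in that fit. Kcnn4 (ENSMUSG00000054342, chromosome 7, 24370263 to 24386690) encodes KCa3.1, a channel of immune cells including microglia. It was at 1.57 and 2.27 in AnnexinV-positive libraries and 0.746 and 0.732 in AnnexinV-negative libraries. For Kcnn4 the log2 fold change was 1.24 (SE 0.28, limma adjusted p 0.0138; 0.00805 to 0.979 over 14 alternatives). Without AnnexinV-positive library 2 it was 0.99 (adjusted p 0.135), with the libraries centred on the median ratio 0.82 (adjusted p 0.0782), and after centring on microglia markers 0.01.

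Kcnma1 (ENSMUSG00000063142, chromosome 14, 23289431 to 24014491) encodes the pore of the large-conductance BK channel, which opens with both voltage and calcium. It was at 1.36 and 1.23 in AnnexinV-positive libraries and 0.559 and 0.782 in AnnexinV-negative libraries, close to the minimum. The log2 fold change of Kcnma1 was 0.87 (SE 0.29, limma adjusted p 0.0479; 0.0260 to 0.712 over 13 alternatives). It no longer passed without AnnexinV-positive library 1 (0.81, adjusted p 0.226), without AnnexinV-positive library 2 (0.94, adjusted p 0.183) or without AnnexinV-negative library 1 (0.66, adjusted p 0.128). With the libraries centred on microglia markers it turned to -0.36. In the annotation 1016 of its exon bases are shared with 4930519K11Rik.

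Neither described accessory gene passed the test. Kcnip3 (ENSMUSG00000079056, chromosome 2, 127456498 to 127522094) encodes a calcium sensor that binds Kv4 channels and also acts as a transcriptional repressor. It was at 1.74 and 1.49 in AnnexinV-positive libraries and 3.14 and 1.87 in AnnexinV-negative libraries. AnnexinV-negative library 1 stood apart from the other libraries. Kcnip3 differed by -0.56 on the log2 scale (SE 0.29, limma adjusted p 0.152; 0.0126 to 0.581 over 14 alternatives), and it passed on the TPM scale (-1.36, adjusted p 0.0217) and without AnnexinV-negative library 2 (-0.92, adjusted p 0.0251).

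Kcne2 (ENSMUSG00000039672, chromosome 16, 92292389 to 92298129) encodes a single-span subunit that is abundant in choroid plexus, the tissue that secretes cerebrospinal fluid. It was at 2.79 and 0.348 in AnnexinV-positive libraries and 2.96 and 0.473 in AnnexinV-negative libraries. The libraries numbered 1 were high and those numbered 2 low in both groups. For Kcne2 the log2 fold change was -0.22 (SE 1.0, limma adjusted p 0.868; 0.155 to 0.912 over 14 alternatives), and it turned to 1.13 without AnnexinV-positive library 2 and to 0.99 without AnnexinV-negative library 1. Ttr, the thyroid hormone carrier made by choroid plexus, had the same order, at 383 and 54.2 in AnnexinV-positive libraries and 360 and 18.4 in AnnexinV-negative libraries. Summed over the 8 listed markers of choroid plexus and ependyma, the level was 405 and 60.5 against 380 and 21.7, most of it Ttr, with none of them at 0 in any library. Of the 8 markers, 7 were higher in library 1 than in library 2 of both groups, and Tmem212, a gene of ciliated ependyma, was at 0.367 and 0.519 in AnnexinV-positive libraries and 0.558 and 0.144 in AnnexinV-negative libraries. The part of choroid plexus RNA in the Kcne2 values was not tested.

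**Figure D3:**
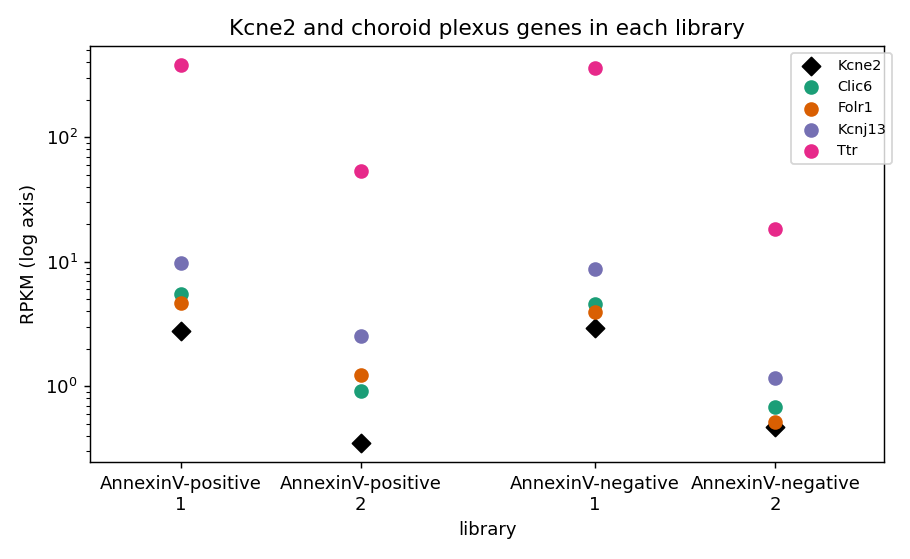
RPKM (log axis) of Kcne2 (black diamonds) and of the choroid plexus genes Clic6, Folr1, Kcnj13 and Ttr in each library. All 5 genes are higher in the library numbered 1 than in the library numbered 2 of each group, with Kcne2 at 2.79 and 0.348 in AnnexinV-positive and 2.96 and 0.473 in AnnexinV-negative cells.

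The make-up of potassium channel RNA, as each gene's share of the summed RPKM of the 92 genes, does not depend on how libraries are scaled to each other. The sum itself does depend on that scaling. On the deposited scale it was 92.5 and 84.4 in AnnexinV-positive libraries and 75.9 and 81.6 in AnnexinV-negative libraries. As a share of the summed RPKM of all genes, the order of the groups was reversed. That share was 0.0462% and 0.0387% in AnnexinV-positive libraries and 0.0617% and 0.0676% in AnnexinV-negative libraries. Kcna3, Kcnk6, Kcnk13 and Kcnj2 together took 73.7% and 74.4% of the 92-gene sum in AnnexinV-positive cells and 44.4% and 58.4% in AnnexinV-negative cells. Kcnk13 had the highest level of the 14 genes in both AnnexinV-negative libraries, while Kcnk6 and Kcna3 stood above it in both AnnexinV-positive ones.

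Kcna3 stood at 1.53 and 1.81 of the Kcnk13 level in AnnexinV-positive cells and at 0.500 and 0.838 in AnnexinV-negative cells. Kcna1 and Kcna6 together with Kcnj10 made up well under 1% each in the AnnexinV-positive libraries, against 2.06% to 4.06% each in the AnnexinV-negative ones. The 78 genes below the minimum took 9.88% and 11.3% in AnnexinV-positive and 26.2% and 23.3% in AnnexinV-negative libraries. These shares have 2 values a group and were not tested, since an exact permutation test of 2 against 2 cannot give a p below 0.333.

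**Figure D4:**
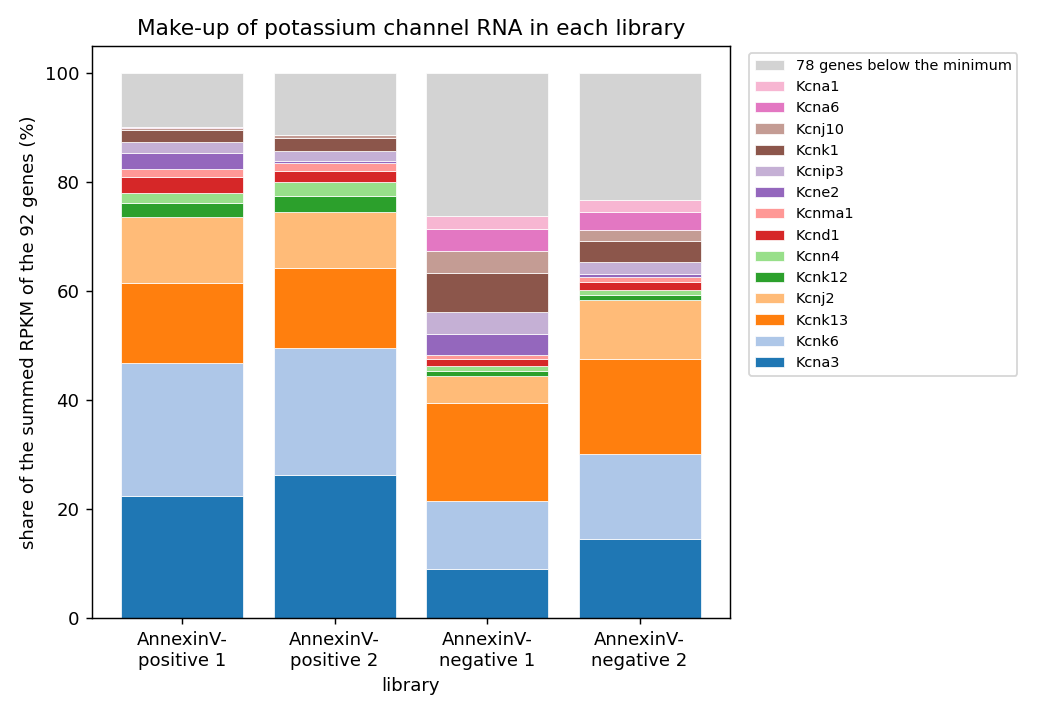
Share of the summed RPKM of the 92 potassium channel genes taken by each of the 14 described genes and by the other 78 (grey), in percent, for each library. The 4 genes at the base of the bars (Kcna3, Kcnk6, Kcnk13 and Kcnj2) reach 73.7% and 74.4% in AnnexinV-positive and 44.4% and 58.4% in AnnexinV-negative cells.

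Of the 78 genes below the minimum, 36 were voltage-gated pore genes, 15 accessory, 11 inward rectifier, 10 tandem pore and 6 calcium- or sodium-activated genes. None was at 0 in all 4 libraries, and 12 were under 0.1 in each. Just below the minimum lay Kcnj16, which encodes the Kir4.1 partner Kir5.1 (0.583 and 0.605 against 0.971 and 1.14), Kcne4, a subunit that inhibits Kv1 channels (0.240 and 0.127 against 0.899 and 1.42), and Kcnab1, a cytoplasmic beta subunit of Kv1 channels (0.299 and 0.440 against 1.36 and 0.846). These 3 reached 1 in 1 library each. Just above it lay Kcnma1, Kcnn4 and Kcnd1, with second highest values of 1.23, 1.57 and 1.59.

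In a fit with no minimum over 44826 genes, of which 4.16% were higher and 5.55% lower, none of these 78 rose and 5 fell (limma): Kcne4, Kcnmb3, Kcnk10, Kcnk9 and Kcnj5. At an unadjusted limma p under 0.05, 1 was higher and 34 were lower, where all genes in that fit gave 12.1% and 16%. Kcnmb3, a beta subunit of BK channels, was at 0.103 ± 0.104 in AnnexinV-positive and 0.721 ± 0.0444 in AnnexinV-negative cells (SD, n = 2 each). Kcne4 was at 0.183 ± 0.0799 and 1.16 ± 0.369 (SD, n = 2 each); the log2 difference was -2.15 with SE 0.36 (limma adjusted p 0.0254). Kcnk10 (-1.76), Kcnk9 (-1.55) and Kcnj5 (-1.51) had smaller log2 fold changes, on a scale where the added 0.1 shrinks the change of such low genes.

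**Figure D5:**
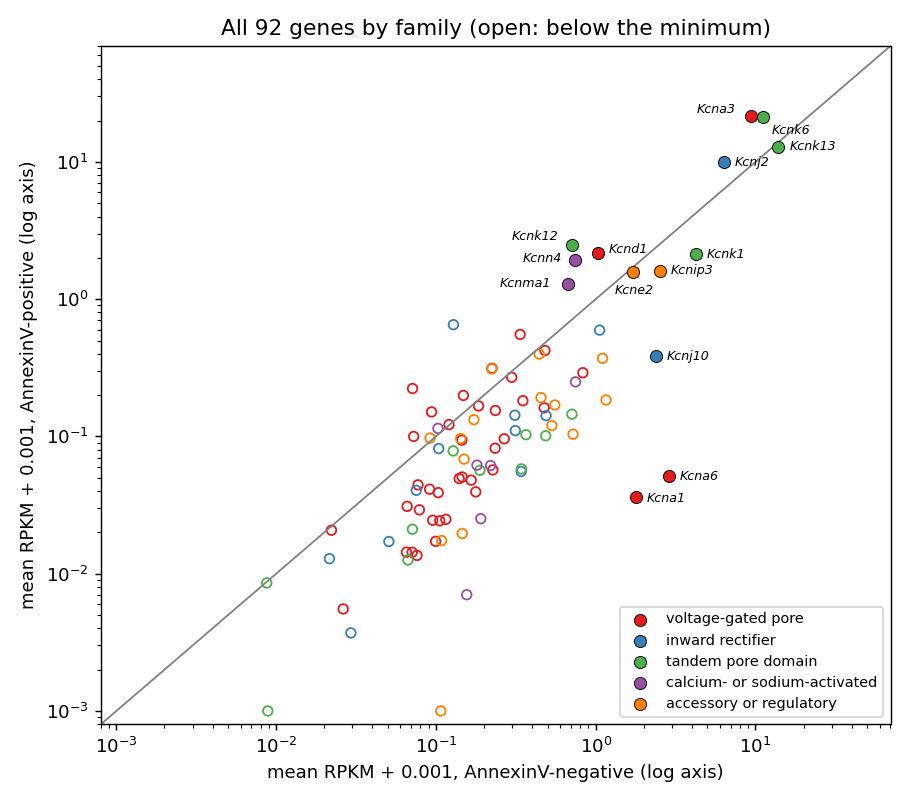
Mean RPKM + 0.001 of all 92 genes in AnnexinV-negative (x) and AnnexinV-positive (y) cells on log axes, coloured by family, with the line of equal levels. Filled points are the 14 described genes and open points the 78 below the minimum; Kcna6, Kcna1 and Kcnj10 lie farthest under the line among the filled points.

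Other genes of potassium handling were read from 5 lists. In the sodium-potassium pump, which returns potassium to the cell, 3 of 9 tested genes rose, 2 fell and 4 did not pass, with a median log2 fold change of -0.30, against 30.8% higher, 9.26% lower and a median of 0.45 over all genes. The share of pump genes that rose was thus near that of all genes. The glial pump subunit Atp1b2 was at an RPKM of 2.37 ± 0.558 in AnnexinV-positive and 7.93 ± 1.82 in AnnexinV-negative cells (SD, n = 2 each) and fell by 1.70 on the log2 scale (limma adjusted p 0.00414). Fxyd5, a regulator of the pump, rose from 6.66 ± 0.991 to 14.1 ± 2.64 (1.07, limma adjusted p 0.0103), and was at -0.17 after centring on microglia markers. The numbers of risen and fallen pump genes varied with the library left out, and so did those over all genes tested. Without AnnexinV-positive library 2 the log2 fold change of Fxyd5 was 0.88. Over 14 alternatives the limma adjusted p of Fxyd5 ran from 0.00188 to 0.649.

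Of 8 tested cation-chloride cotransporter genes and their kinases, 4 rose, 1 fell and 3 did not pass, with a median of 0.64, beside the same 30.8%, 9.26% and 0.45 over all genes. The kinase Wnk1 was at 0.96 and the cotransporter-like Slc12a9 at 0.66 on the deposited scale (limma adjusted p 0.0109 and 0.0249), and at -0.28 and -0.57 after centring on microglia markers. The kinase Stk39, which switches on the cotransporter NKCC1, fell (log2 fold change -1.77, limma adjusted p 0.0321). The number of risen genes of this list varied with the library left out, and so did the number over all genes tested. These counts are therefore not read as a trait of the list. Stk39 did not pass without AnnexinV-positive library 2 (-1.02) or without AnnexinV-negative library 1 (-1.34).

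Among channel and accessory genes named otherwise, 2 of 14 were tested. Hcn2, a hyperpolarisation-activated cation channel found in myelinating oligodendrocytes and neurons, was at 0.545 ± 0.128 RPKM in AnnexinV-positive and 6.81 ± 3.62 in AnnexinV-negative cells (SD, n = 2 each); the log2 difference was -3.33 with SE 0.38 (limma adjusted p 0.00192). Tmem175, a potassium channel of lysosomes, rose by 0.78 (limma adjusted p 0.0200), and was at 0.03 on the TPM scale and -0.45 after centring on microglia markers. Without AnnexinV-positive library 1 or 2 Tmem175 did not pass (0.74 and 0.83).

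Of 6 tested genes of axon-glia contact and channel anchoring, 4 fell, 1 rose and 1 did not pass, with a median of -1.46. Over all genes tested, 9.26% were lower and 30.8% higher, with a median of 0.45. Cntn2, the adhesion protein that holds Kv1 channels beside the node, was at 0.0796 ± 0.00498 in AnnexinV-positive and 4.20 ± 0.657 in AnnexinV-negative cells (SD, n = 2 each); the log2 difference was -4.57 with SE 0.29 (limma adjusted p 2.70e-04). Lgi3, a secreted ligand of the Kv1-associated protein ADAM23, had a log2 fold change of -4.42, and Dtna, a dystrobrevin of the complex that anchors Kir4.1 in astrocyte endfeet, of -2.18. The 1 gene of this list that rose did not keep that call with each library left out. The number of risen genes over all genes tested varied there too.

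The last list held purine receptors, genes of the NLRP3 inflammasome path, which potassium exit feeds, and the proton and chloride channel genes Hvcn1 and Clic1. Of its 12 genes, Lrrc8a lay below the minimum and was not tested. All 11 tested genes of it were higher on the deposited scale, with a median of 1.33, against 30.8% and 0.45 over all genes. On the TPM scale 2 were higher, where all genes gave 1.03%. With the libraries centred on the median ratio 8 were higher, where all genes gave 6.53%. After centring on microglia markers 0 were higher (0 also at an unadjusted limma p under 0.05), where all genes gave 0.101%. P2ry12 of this list is also 1 of the 14 microglia markers used for that centring. Il1b, the cytokine that the inflammasome matures, was at an RPKM of 742 ± 57.3 against 247 ± 13.1, Casp1 at 15.1 ± 0.662 against 5.44 ± 0.114, and P2rx4, an ATP-gated channel, at 28.4 ± 0.846 against 11.0 ± 1.34 (SD, n = 2 each).

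Markers of cell types were read from the same fit, in which 30.8% of all genes tested were higher and 9.26% lower. All 14 oligodendrocyte markers fell (median -4.74), with a summed RPKM of 87.4 to 103 in AnnexinV-positive and 617 to 1100 in AnnexinV-negative libraries, and 8 of 10 astrocyte markers fell (median -1.22, sum 33.8 to 50.5 against 74.9 to 103). The 14 microglia markers all rose on the deposited scale (median 1.24, sum 7268 to 7663 against 2806 to 3323), and 2 of them on the TPM scale. Endothelial markers fell in 7 of 8 tested (sum 8.74 to 14.0 against 56.1 in both), mural markers in 4 of 6 (7.11 to 15.8 against 60.0 to 73.7), precursor markers in 7 of 8 (18.4 to 20.6 against 129 to 162) and neuron markers in 2 of 3 (2.09 to 2.19 against 11.5 to 17.0). Of 8 listed border macrophage markers, 3 were tested and all 3 rose (sum 17.6 against 5.64 to 6.94). With the libraries centred on the median ratio 1 of them was higher, and on the TPM scale 0. The sums cover all listed markers of a type, tested or not. Of 5 tested markers of choroid plexus and ependyma, 0 rose and 0 fell. No listed marker was at 0 in a library. In these bulk samples fewer cells of a type and less RNA per cell cannot be told apart, and the part of cell composition in the channel results was not tested.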

How the data were processed

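RNA of 2 AnnexinV-positive and 2 AnnexinV-negative samples was sequenced with the Illumina TruSeq v2 kit, which keeps no strand, per the labels' protocols. Reads were aligned with GSNAP to mm10, per the submitters' processing notes. No version, counter, gene length table or read filter is given in the sources used here. The deposited values carry no unit and were read as RPKM scaled by the authors with size factors, because 79.6% to 83.6% of values under 100 reads lay within 0.01 of a whole number of reads, given exonic lengths from GENCODE vM21 (GRCm38, the assembly of mm10). That annotation named 52403 genes. Read numbers given for single genes depend on those lengths.

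The log2 of RPKM + 0.1 was fitted with limma 3.58.1 (R 4.3.3, trended variance, no covariate) for genes reaching an RPKM of 1 in 2 or more libraries. Alternatives were a pseudocount of 1 or 0.01, no minimum, a minimum of 1 on the mean, 4 other scalings, a replicate block and leaving out each library with the genes held. The centring on the median ratio and the crossed block were added after seeing the data. On simulated data for this comparison (10927 genes), 58% of 100 genes changed 2-fold and 98% of 100 changed 4-fold were recovered, with 18 false calls. Only those genes were changed there, with no shift shared by the rest. Far more genes were called in the real data, so these rates may not hold for them.

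The members and lists were chosen with earlier results of these data known. Every member at the RPKM minimum is named, with the 3 nearest members on either side of it, members past 1 in 1 library, and the 3 genes of each partner list with the smallest p, except for results not reported here. Kcna5, Kcnj9, Kcnmb3, Kcnk10, Kcnk9, Kcnj5, Ttr, Tmem212, Hvcn1, Clic1, Lrrc8a and P2ry12 were named after their values were seen. The 4 printed promoters and the motifs searched in them were also chosen after that.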

Additional observations from a re-analysis of the deposited data

How the results depend on the processing

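Kcna6, Kcna1 and Kcnj10 fell in every alternative in which they were tested, and Kcna3 and Kcnk12 rose with each library left out in turn. Scaling changed many other calls, against 3364 higher and 1012 lower genes on the deposited scale. Centred on the median of each library's genes, 1133 genes were higher, and of the 14 channel genes 1, with 0 voltage-gated, 1 tandem pore and 0 calcium-activated genes, 1 pump gene, 0 cotransporter genes and 0 other subunits. Centred on the median ratio, 713 genes were higher, and of the channel genes 1, with 0 voltage-gated, 1 tandem pore and 0 calcium-activated, and 0 genes in each of the pump, cotransporter, other subunit and anchor lists. On the TPM scale 113 were higher and 2091 lower, with 1 channel gene higher (0 voltage-gated, 1 tandem pore, 0 calcium-activated), 1 accessory and 2 tandem pore genes lower, 0 higher genes in the pump, cotransporter, other subunit and anchor lists and 2 in the inflammasome list. Kcnj2 turned to -0.012 and Slc12a9 to -0.11 there. Centred on microglia markers, 11 were higher and 5587 lower, with 0 channel genes or genes of any partner list higher, and 1 accessory, 2 tandem pore, 4 pump and 3 cotransporter genes lower. Signs turned there for Kcnd1 (-0.28), Kcnj2 (-0.48), Kcnk6 (-0.30), Kcnma1 (-0.36), Fxyd5 (-0.17), Slc12a9 (-0.57), Tmem175 (-0.45) and Wnk1 (-0.28). Each centring shifts all genes of a library together by construction. On the TPM scale the 0.1 was added after rescaling, so low genes moved by other amounts than high ones. The log2 fold change of Kcna1 went from -3.80 to -5.83 there and that of Kcnk6 from 0.94 to 0.16.

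With no minimum, over 44826 genes, 1865 were higher and 2489 lower, and of the genes described 1 calcium-activated, 1 voltage-gated, 1 pump and 1 cotransporter gene and 0 other subunits were higher, with 0 tandem pore and 0 cotransporter genes lower. A pseudocount of 0.01 left 1 calcium-activated gene higher. A minimum on the mean left 1 calcium-activated gene higher and 1 voltage-gated gene lower, because Kcnma1 and Kcna1 were then not tested. A pseudocount of 1 kept each count within 1.5 times. The cause of the other changes was not tested.

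Leaving out 1 library gave 1297 to 3356 genes higher and 787 to 1060 lower, and 3 to 7 channel genes higher and 3 to 5 lower. By family the higher genes were 1 to 2 voltage-gated, 1 to 2 tandem pore, 0 to 2 calcium-activated and 0 to 1 inward rectifier, and the lower ones 0 to 1 tandem pore and 0 to 1 accessory. The partner lists gave 0 to 3 pump, 0 to 5 cotransporter, 0 to 1 other subunit and 0 to 1 anchor genes higher, and 2 to 5 pump and 0 to 1 cotransporter genes lower. Kcne2 went from -0.22 to between -1.56 and 1.13, at 1.13 without AnnexinV-positive library 2 and 0.99 without AnnexinV-negative library 1.

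The groups share replicate numbers. Deviations from the group means were weakly and negatively correlated between libraries of the same number (Pearson's r -0.215 across 10927 genes, which are not independent). The number was therefore not taken as a pairing in the main fit. Single genes did follow it, among them Kcne2 and 7 of the 8 choroid plexus and ependyma markers. For Kcne2 the replicate block gave an SE of 0.32 instead of 1.0, at the same log2 fold change of -0.22. With a replicate block 2443 genes were higher and 957 lower, and 4 channel genes were higher and 4 lower, with 1 calcium-activated and 1 voltage-gated gene, 1 cotransporter gene and 0 other subunits higher. With the crossed pairing, chosen after seeing the data, 4891 were higher and 1136 lower, and 7 channel genes were higher, among them 1 inward rectifier. With 2 libraries a group, a change near 2-fold can be missed, as in the simulated data, though far fewer genes were changed there.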

Other observations

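The annotation also holds 5 antisense RNAs named after potassium channel genes, which the selection of protein-coding genes leaves out. Kcnq1ot1, the long RNA that silences the imprinted cluster around Kcnq1 (chromosome 7, 143203458 to 143296549, minus strand, GRCm38), had RPKM values of 0.337 and 0.335 in AnnexinV-positive libraries and 0.370 and 0.397 in AnnexinV-negative libraries. Kcnd3os was at 0.0972 and 0.172 against 0.0738 and 0.0458, and Kcnab3os, Kcnmb4os1 and Kcnmb4os2 were each at or under 0.125 in every library. Without strand, reads of these genes cannot be told apart from those of the genes they overlap.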
